A study of Rattus norvegicus with 16 samples.

Results

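The genes described here are those of the inflammasome (Nlrp3, Pycard, Casp1, Casp4, Gsdmd and Il18) and of necroptosis (Ripk1, Ripk3, Mlkl and Zbp1), measured in liver RNA of rats with and without abdominal sepsis under isoflurane or propofol. They were taken by symbol from a list of 10 genes, 9 of which were among the 17055 gene symbols counted. Mlkl is not analysed here. Of the 9 genes, 8 had enough reads for the test across all genes, and Zbp1 is given by its reads alone.

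The inflammasome is a protein platform built in the cytosol when a sensor such as Nlrp3 meets signs of infection or damage. The adaptor Pycard (also called ASC) joins the sensor to Casp1, which cuts the precursors of interleukin-1 beta and interleukin-18 and cuts Gsdmd, whose freed end forms pores in the plasma membrane and kills the cell by pyroptosis. Casp4, the rodent caspase also known as caspase-11, cuts Gsdmd after it has bound bacterial lipopolysaccharide in the cytosol. Necroptosis is a second lytic form of cell death, in which the kinases Ripk1 and Ripk3 assemble downstream of death receptors, or Ripk3 joins the nucleic acid sensor Zbp1, and Mlkl carries out membrane rupture. In liver, Kupffer cells and recruited leukocytes are well known sources of inflammasome components. All of these proteins are activated by cutting, binding or phosphorylation, which RNA levels do not measure.

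The animals were male Sprague-Dawley rats of 10 weeks, and each of 4 groups had 12 of them. Sepsis was produced by cecal ligation and puncture (CLP), in which the cecum is tied and pierced so that gut contents leak into the abdomen. Control rats had a sham operation in which the abdomen was opened and the cecum was taken out and put back, and all livers were collected 8 h after the celiotomy. The Isoflurane-Sepsis and Isoflurane-Control groups received isoflurane from induction onward. The Propofol-Sepsis and Propofol-Control groups had propofol for maintenance after an induction by ketamine with xylazine, and all rats breathed 100% oxygen. The liver RNA of 3 rats was pooled for each library, so each group had 4 libraries and the spread given below is between pools rather than single rats. By their numbers, libraries 1 to 4 came from septic rats and 5 to 8 from control rats under isoflurane. Under propofol, libraries 9 to 12 came from septic rats and 13 to 16 from control rats. The induction drugs and the naming series of the libraries went with the anesthetic, and these cannot be told apart from isoflurane against propofol.

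The libraries held between 14199422 and 49937173 reads on genes. None of the 10 hepatocyte markers was at 0 throughout a group. Library 10, a Propofol-Sepsis pool, stood apart because its 10 brain markers summed to 384.6 CPM (counts scaled to a common library size), while the other 15 libraries had 4.94 to 25.1 CPM. For the Propofol-Sepsis group, calls of the 8 genes are therefore given with and without library 10 where they changed. The same holds for the count called over all of the wider pathway lists further below. Other counts, and values of single pathway genes, are given with library 10 only. Neutrophil and monocyte markers also moved with sepsis, as the plot of marker lists by library shows. Their 11 measured genes summed to 39.2 to 126 CPM in Isoflurane-Sepsis and 19.2 to 22.03 CPM in Isoflurane-Control, and to 39.4 to 58.1 CPM in Propofol-Sepsis and 20.02 to 28.5 CPM in Propofol-Control, with no listed gene at 0 throughout a group. Of the 8 tested neutrophil and monocyte markers 6 rose under isoflurane and 5 under propofol. This count and the marker counts that follow are to be read against all genes tested. Of these, 50.0% were called under isoflurane and 42.1% under propofol, in either direction. Of 10 Kupffer cell and macrophage markers, 6 rose and 1 fell under isoflurane, with sums of 471 to 649 CPM in sepsis and 414 to 510 CPM in controls, and 2 rose and 1 fell under propofol, with sums of 447 to 550 and 484 to 547 CPM. All 3 tested lymphocyte and NK cell markers rose under isoflurane, with sums of 5.09 to 12.5 CPM against 2.92 to 3.35 CPM, and 0 of 3 were called under propofol, with 4.70 to 6.70 against 4.27 to 5.65 CPM. Of 7 sinusoidal endothelium markers, 5 fell under isoflurane, with sums of 128 to 146 CPM against 177 to 223 CPM, and under propofol 2 fell and 1 rose, with 178 to 188 against 215 to 258 CPM. Hepatocyte markers summed to 115999 to 132719 CPM in Isoflurane-Sepsis against 139038 to 148398 CPM in its controls, where 3 of 10 fell, and to 97168 to 107606 against 105972 to 119255 CPM under propofol, where 4 of 10 fell. The share of reads outside genes was also higher in every septic library than in every control library of its anesthetic, at 23.1% to 25.4% against 22.4% to 22.95% under isoflurane and 22.2% to 23.3% against 21.6% to 22.1% under propofol. In whole liver RNA, more or fewer cells of a type and more or less RNA per cell cannot be told apart, and the part of these markers and read shares in the levels below was not tested. P-values below measure the spread between pools.

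**Figure D1:**
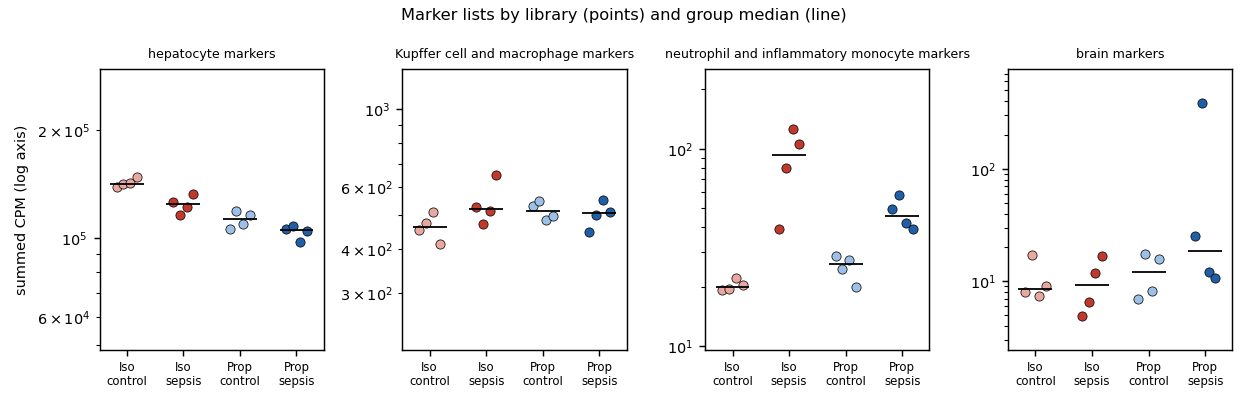
Summed level of 4 marker lists in each of the 16 libraries, in CPM on a logarithmic axis, by group, with a line at the group median. Neutrophil and monocyte markers lay higher in every sepsis library (39.2 to 126 CPM) than in every control library (19.2 to 28.5 CPM), and 1 Propofol-Sepsis library reached 384.6 CPM for brain markers.

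Under isoflurane, Nlrp3, Casp4, Ripk1 and Ripk3 rose in septic liver and Gsdmd fell, while Casp1, Pycard and Il18 did not pass the test. Under propofol, Ripk1 rose and Gsdmd fell, and the other 6 did not pass the test. Under isoflurane 5 of 8 genes were called at an adjusted p below 0.05 in edgeR's quasi-likelihood test, against 50.0% of all 10361 genes tested. Under propofol 2 of 8 were called (3 without library 10), against 42.1% of 10348 genes. The median log2 fold change of the 8 genes was 0.33 under isoflurane and -0.10 under propofol, and over all genes tested it was 0.0061 and -0.0016. When the difference between the anesthetics was itself tested, the responses of Nlrp3 and Casp4 were more positive under isoflurane. No other of the 8 genes was called. The call of Nlrp3 was lost in 16 of 23 alternative fits and that of Casp4 in 3.

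**Figure D2:**
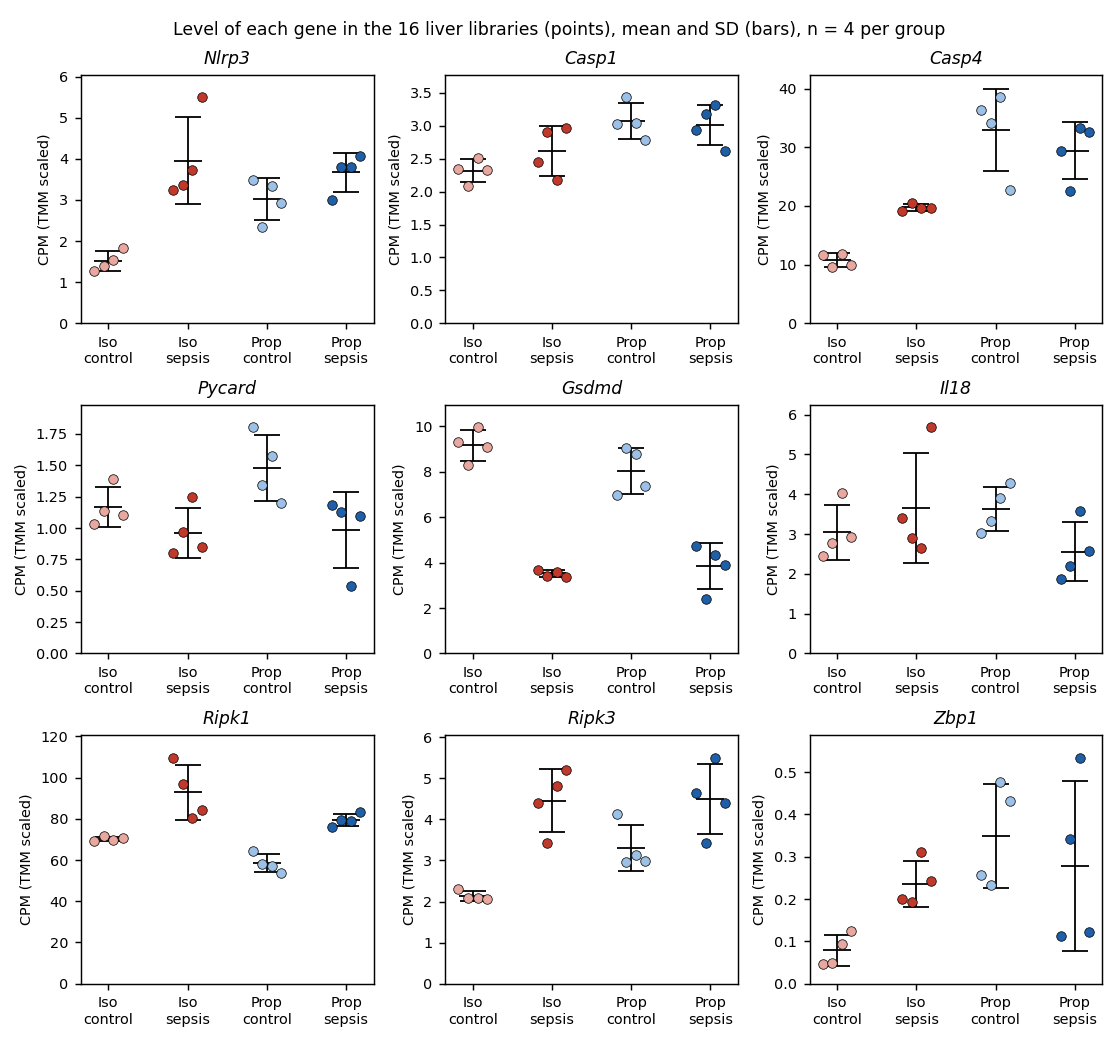
Level of each of the 9 genes in CPM after TMM scaling (linear axes from 0), by group, with a point per library and bars for the mean and SD of 4 libraries. Casp4 lay between 9.56 and 11.8 CPM in Isoflurane-Control and between 19.1 and 20.6 CPM in Isoflurane-Sepsis, below all propofol libraries (22.5 to 38.5 CPM), and Gsdmd lay lower in sepsis than in control under both anesthetics.

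The promoters of 6 of the 9 genes were found in the RefSeq promoter table for the rat assembly GRCr8, as windows of 300 bases from 250 before to 50 after the start of the gene. Casp4, Gsdmd and Zbp1 had no window there and were not searched, although Casp4 also rose under isoflurane and Gsdmd fell. The windows of Nlrp3, Ripk1 and Ripk3 are shown because these genes rose together under isoflurane, and that of Casp1 because it holds the same element as Ripk1 while Casp1 did not pass the test. Capitals mark matches to an interferon-stimulated element (GAAANNGAA) or a gamma-activated site (TTCNNNGAA), searched on both strands, and the sequences run 5′ to 3′ on the strand of the gene.
Nlrp3, chr10:44827848-44828147, plus strand: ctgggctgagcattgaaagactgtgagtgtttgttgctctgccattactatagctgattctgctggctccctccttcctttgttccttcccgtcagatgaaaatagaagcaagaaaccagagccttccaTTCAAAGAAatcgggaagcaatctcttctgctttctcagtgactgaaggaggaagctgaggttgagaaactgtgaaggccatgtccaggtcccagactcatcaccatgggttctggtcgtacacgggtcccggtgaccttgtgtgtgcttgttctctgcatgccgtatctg
Casp1, chr8:10872580-10872879, plus strand: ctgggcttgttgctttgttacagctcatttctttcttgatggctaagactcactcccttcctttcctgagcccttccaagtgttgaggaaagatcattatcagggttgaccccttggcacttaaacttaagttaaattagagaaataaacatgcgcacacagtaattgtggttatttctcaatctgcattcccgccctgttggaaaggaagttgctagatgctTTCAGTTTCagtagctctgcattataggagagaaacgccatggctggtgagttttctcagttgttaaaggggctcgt
Ripk1, chr17:31077118-31077417, minus strand: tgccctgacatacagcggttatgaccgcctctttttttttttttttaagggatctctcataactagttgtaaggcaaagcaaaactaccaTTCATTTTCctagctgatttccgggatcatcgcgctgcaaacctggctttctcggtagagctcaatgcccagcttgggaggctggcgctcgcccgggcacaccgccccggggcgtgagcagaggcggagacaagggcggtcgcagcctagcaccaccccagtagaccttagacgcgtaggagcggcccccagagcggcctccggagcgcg
Ripk3, chr15:33261976-33262275, minus strand: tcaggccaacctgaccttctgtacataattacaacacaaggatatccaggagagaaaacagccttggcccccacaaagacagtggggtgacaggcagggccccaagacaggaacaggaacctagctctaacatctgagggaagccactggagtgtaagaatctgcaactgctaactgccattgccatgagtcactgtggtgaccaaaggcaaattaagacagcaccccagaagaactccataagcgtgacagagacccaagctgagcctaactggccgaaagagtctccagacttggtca

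The Nlrp3 window held the gamma-activated site TTCAAAGAA from position -121 to -113, with -1 the base before the start, and this pattern reads the same on both strands. The interferon-stimulated element was found on the opposite strand in Casp1 at -27 to -19 and in Ripk1 at -160 to -152. No match lay in the windows of Ripk3, Pycard and Il18, and no window held the NF-kB consensus, the binding sequence of the family of factors that drives much of the acute inflammatory program. Of all 33469 promoter windows in the table, 9.71% held the interferon-stimulated element, 8.87% the gamma-activated site and 4.18% the NF-kB consensus. A match is a likeness of letters and does not show that a factor was bound.

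Nlrp3 encodes the sensor of the canonical inflammasome, and its RNA is usually low until inflammatory signals induce it. In Isoflurane-Control the 4 libraries held 1.27, 1.39, 1.53 and 1.83 CPM, and in Isoflurane-Sepsis they held 3.24, 3.35, 3.73 and 5.50 CPM. Every septic pool was above every control pool. The log2 fold change was 1.37 (SE 0.211, adjusted p = 0.000978), a 2.58-fold higher level. Under propofol the controls held 3.48, 2.33, 3.33 and 2.93 CPM and the septic pools 2.99, 3.81, 3.80 and 4.08 CPM. These groups overlapped, and the log2 fold change of 0.28 (SE 0.168, adjusted p = 0.202) did not pass the test, with 0.18 without library 14. The septic pools of both anesthetics overlapped in level. Isoflurane-Control was the lowest of the 4 groups, and its highest pool was below the lowest pool of Propofol-Control.

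Pycard, the adaptor, was listed at the lowest level of the 8 tested genes in reads, with 10 to 53 reads per library. It held 1.03, 1.14, 1.39 and 1.10 CPM in Isoflurane-Control and 0.799, 0.967, 1.24 and 0.846 CPM in Isoflurane-Sepsis, and these groups overlapped. In Propofol-Control it held 1.80, 1.34, 1.57 and 1.20 CPM, and in Propofol-Sepsis 1.19, 1.12, 0.535 and 1.09 CPM, so every septic pool was below every control pool, by a narrow margin at the closest. Neither difference passed the test, with a log2 fold change of -0.26 (SE 0.211, adjusted p = 0.323) under isoflurane and -0.58 (SE 0.266, adjusted p = 0.107) under propofol. Single libraries moved these values, to -0.17 without library 1 and -0.43 without library 3 under isoflurane, and to -0.38 without library 11 under propofol.

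Casp1, the executioner of the canonical inflammasome, differed by less than the test could call in both anesthetics. Its level was 2.35, 2.08, 2.51 and 2.33 CPM in Isoflurane-Control and 2.45, 2.90, 2.18 and 2.96 CPM in Isoflurane-Sepsis. Under propofol it was 3.03, 3.44, 3.05 and 2.78 CPM in controls and 2.94, 3.18, 3.31 and 2.62 CPM in sepsis. The log2 fold change was 0.17 (SE 0.145, adjusted p = 0.350) under isoflurane, with an interval of 2 standard errors from -0.12 to 0.46. Under propofol it was -0.039 (SE 0.145, adjusted p = 0.847), with an interval from -0.33 to 0.25. Neither interval reached the size of the changes of Nlrp3 or Gsdmd under isoflurane.

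Casp4, the cytosolic receptor for lipopolysaccharide, had the narrowest spread of the 9 genes in the Isoflurane-Sepsis group, with a coefficient of variation of 3.02%. Its 4 libraries held 19.1, 20.6, 19.7 and 19.7 CPM, and those of Isoflurane-Control 11.7, 9.56, 11.8 and 9.88 CPM. The groups did not overlap, and the log2 fold change was 0.88 (SE 0.0942, adjusted p = 0.000193), a 1.84-fold higher level. Under propofol the controls held 36.3, 34.1, 38.5 and 22.8 CPM and the septic pools 29.4, 22.5, 33.2 and 32.5 CPM. These overlapped and the log2 fold change was -0.17 (SE 0.169, adjusted p = 0.455), or -0.050 without library 10, -0.083 without library 15 and -0.31 without library 16. Casp4 lies between Casp1 and Casp12 on chromosome 8 in GRCr8. Casp12, a related caspase that also belongs to the pathway lists below, did not move with Casp4 under isoflurane (log2 fold change 0.032, adjusted p = 0.859). Under propofol Casp12 fell (-0.76, adjusted p = 0.00148), where Casp4 was not called. Like Casp4, it was lower in Isoflurane-Control than in Propofol-Control (-0.69, adjusted p = 0.00205). Its response was also more positive under isoflurane than under propofol (0.78, adjusted p = 0.0463). Between the septic groups Casp12 was not called (0.094, adjusted p = 0.615).

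Gsdmd, the pore-forming substrate of Casp1 and Casp4, fell in sepsis under both anesthetics. It held 9.31, 8.27, 9.94 and 9.06 CPM in Isoflurane-Control and 3.69, 3.42, 3.58 and 3.38 CPM in Isoflurane-Sepsis, a log2 fold change of -1.37 (SE 0.0998, adjusted p = 4.0e-05). In Propofol-Control it held 6.95, 9.03, 8.76 and 7.35 CPM, and in Propofol-Sepsis 4.75, 2.40, 4.33 and 3.89 CPM, a log2 fold change of -1.07 (SE 0.197, adjusted p = 0.00212). In neither anesthetic did a septic pool reach a control pool. The lowest value of Propofol-Sepsis was that of library 10, and without it the change was -0.91 (SE 0.132, adjusted p = 0.00064). In the fits of 4 libraries against 4, Gsdmd was the only one of the 8 genes called as lower in either anesthetic, and its direction was opposite to that of the caspase Casp4 under isoflurane.

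Il18, the cytokine that Casp1 matures, varied most between pools of a group among the 8 tested genes under isoflurane. It held 2.45, 2.77, 4.04 and 2.94 CPM in Isoflurane-Control and 3.39, 2.90, 2.64 and 5.68 CPM in Isoflurane-Sepsis, where library 4 was the highest. The log2 fold change was 0.26 (SE 0.259, adjusted p = 0.432), and -0.025 without library 4. In Propofol-Control it held 3.03, 3.32, 3.91 and 4.27 CPM and in Propofol-Sepsis 1.86, 2.20, 3.58 and 2.59 CPM. These groups overlapped through library 11 alone, and the log2 fold change of -0.51 (SE 0.215, adjusted p = 0.0796) missed the threshold. Without library 11 it was called, at an adjusted p of 0.0217.

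Ripk1, the kinase that links death receptors to survival signaling, apoptosis or necroptosis, rose 1.32-fold under isoflurane and 1.35-fold under propofol. It held 69.3, 71.5, 69.5 and 70.5 CPM in Isoflurane-Control and 110, 97.0, 80.3 and 84.2 CPM in Isoflurane-Sepsis. In Propofol-Control it held 64.6, 58.3, 57.3 and 53.9 CPM and in Propofol-Sepsis 75.9, 79.3, 78.8 and 83.4 CPM. Septic and control pools did not overlap in either anesthetic. The log2 fold change was 0.40 (SE 0.0939, adjusted p = 0.00714) under isoflurane and 0.43 (SE 0.0669, adjusted p = 0.000814) under propofol. The difference between these responses was -0.038 with an interval of 2 standard errors from -0.28 to 0.20. The Isoflurane-Control pools differed among themselves by little, with a coefficient of variation of 1.43%, while those of Isoflurane-Sepsis had 14.4%.

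Ripk3, the kinase that phosphorylates Mlkl, rose 2.10-fold under isoflurane. It held 2.30, 2.08, 2.09 and 2.06 CPM in Isoflurane-Control and 4.39, 3.42, 4.82 and 5.20 CPM in Isoflurane-Sepsis, with no overlap. The log2 fold change was 1.07 (SE 0.152, adjusted p = 0.000687). Under propofol it held 4.12, 2.97, 3.14 and 2.98 CPM in controls and 4.63, 3.42, 5.51 and 4.41 CPM in sepsis, and the groups overlapped. The log2 fold change there was 0.44 (SE 0.179, adjusted p = 0.0738). Which side of the threshold it fell on depended on single libraries. Without library 10 the change was 0.55 (adjusted p = 0.0157) and without library 13, the highest control, it was called at an adjusted p of 0.0429. It was also called in a fit of all 16 libraries, at an adjusted p of 0.0420.

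Zbp1, the nucleic acid sensor that can activate Ripk3 without Ripk1, was near the limit of detection in every library. Isoflurane-Sepsis had 4, 3, 6 and 4 reads and Isoflurane-Control 1, 1, 2 and 6 reads, of which the 6 belong to the deepest library. Scaled for depth, the sums of 17 and 10 reads gave a ratio of 2.53 with a 95% interval from 1.09 to 6.18 that covers counting error only. Propofol-Sepsis had 2, 7, 10 and 4 reads and Propofol-Control 4, 4, 10 and 9 reads, a ratio of 0.678 with an interval from 0.371 to 1.23. In an edgeR fit with no limit on low counts, Zbp1 had a log2 fold change of 1.36 (adjusted p = 0.0408) under isoflurane and -0.38 (adjusted p = 0.639) under propofol. At this depth these are statements on a few reads.

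**Figure D3:**
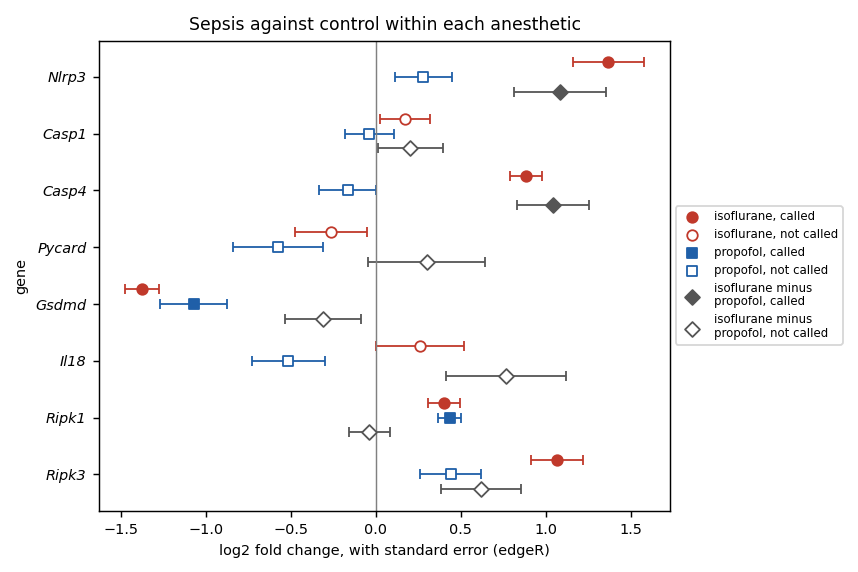
Log2 fold change of sepsis against control for the 8 tested genes under isoflurane (circles) and propofol (squares), and the difference between these responses (diamonds), each with its standard error. Filled symbols passed an adjusted p of 0.05. Gsdmd fell in both (-1.37 and -1.07), Ripk1 rose in both (0.40 and 0.43), and the diamonds of Nlrp3 (1.08) and Casp4 (1.04) are filled.

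Counted without a test, the septic and control pools did not overlap for 5 of the 8 genes under isoflurane, where this held for 48.7% of all genes tested. These were Nlrp3, Casp4, Ripk1 and Ripk3 on the higher side and Gsdmd on the lower. Under propofol 3 of the 8 did not overlap, against 42.2% of all genes, with Ripk1 higher and Pycard and Gsdmd lower. The same genes were separated when libraries were scaled by RLE size factors or by their totals alone.

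The response to sepsis was then compared between the anesthetics as an interaction over all 16 libraries, isoflurane minus propofol. Casp4 had a difference of 1.04 on the log2 scale (SE 0.210, adjusted p = 0.0249) and Nlrp3 of 1.08 (SE 0.271, adjusted p = 0.0468). These 2 of 8 genes were called, against 2.72% of 10621 genes. The differences for Il18 (0.77, SE 0.354, adjusted p = 0.208) and Ripk3 (0.62, SE 0.234, adjusted p = 0.133) had the same sign but did not pass. Without library 10 both calls stood, at an adjusted p of 0.0297 for Casp4 and 0.0486 for Nlrp3. The call of Nlrp3 was lost when any 1 of 13 of the 16 libraries was left out, at an adjusted p of up to 0.0948, and with limma-voom (0.0637), with no limit on low counts (0.0593) or with counts thinned to the shallowest library (0.128). The call of Casp4 was lost without control library 6 (0.0558), 8 (0.0605) or 15 (0.0501).

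The control livers themselves differed between the anesthetics. Isoflurane-Control minus Propofol-Control was -1.62 for Casp4 (SE 0.152, adjusted p = 1.04e-05), a level 3.07-fold lower, and -0.98 for Nlrp3 (SE 0.197, adjusted p = 0.00218), 1.97-fold lower. Ripk3 differed by -0.63 (SE 0.170, adjusted p = 0.0134) and Casp1 by -0.40 (SE 0.136, adjusted p = 0.0389), both lower under isoflurane. Ripk1 was higher by 0.26 (SE 0.0861, adjusted p = 0.0339). In all, 5 of 8 genes were called in the controls, against 26.3% of 10621 genes, and Pycard, Gsdmd and Il18 were not. The calls of Casp1 and Ripk1 were each lost in 9 of 15 alternatives, at an adjusted p of up to 0.225 and 0.331. Cell markers differed between these controls too. Hepatocyte markers summed to 139038 to 148398 CPM in Isoflurane-Control against 105972 to 119255 CPM in Propofol-Control, with 5 of 10 higher and 1 lower under isoflurane, and 3 of 10 Kupffer cell and macrophage markers, 1 of 3 lymphocyte markers and 2 of 7 sinusoidal endothelium markers were lower. These marker counts are to be read against the same 26.3% of all genes. The part of these markers in the differences of Casp4, Nlrp3, Ripk3, Casp1 and Ripk1 was not tested. These controls are also part of the interaction, so the comparisons are not separate evidence.

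In the septic livers, 2 of 8 genes differed between the anesthetics, against 38.6% of 10621 genes. Casp4 remained lower under isoflurane, with a difference of -0.58 (SE 0.148, adjusted p = 0.00738), and Ripk1 was higher by 0.23 (SE 0.0857, adjusted p = 0.0483). Ripk3 differed by -0.0076 with an interval of 2 standard errors from -0.33 to 0.32, and Nlrp3 by 0.10 with an interval from -0.27 to 0.47. In sepsis, 5 of 10 hepatocyte, 6 of 10 Kupffer cell and macrophage and 4 of 9 neutrophil and monocyte markers were higher under isoflurane, while 1 hepatocyte, 2 Kupffer cell and macrophage and 5 of 7 sinusoidal endothelium markers were lower. These marker counts are to be read against the same 38.6% of all genes. Without library 10, Ripk1 missed the threshold (adjusted p = 0.0715). Scaling by library totals alone moved the median difference of all genes by -0.14 in the controls and -0.15 in sepsis, and the share of called genes that were higher under isoflurane went from 49.4% to 19.6% and from 50.9% to 24.9%. On that scale the difference of Ripk1 was 0.12 in the controls (adjusted p = 0.331) and 0.077 in sepsis (adjusted p = 0.497), so both calls of Ripk1 depend on the scaling, whereas Casp4 was called lower under isoflurane by each scaling.

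**Figure D4:**
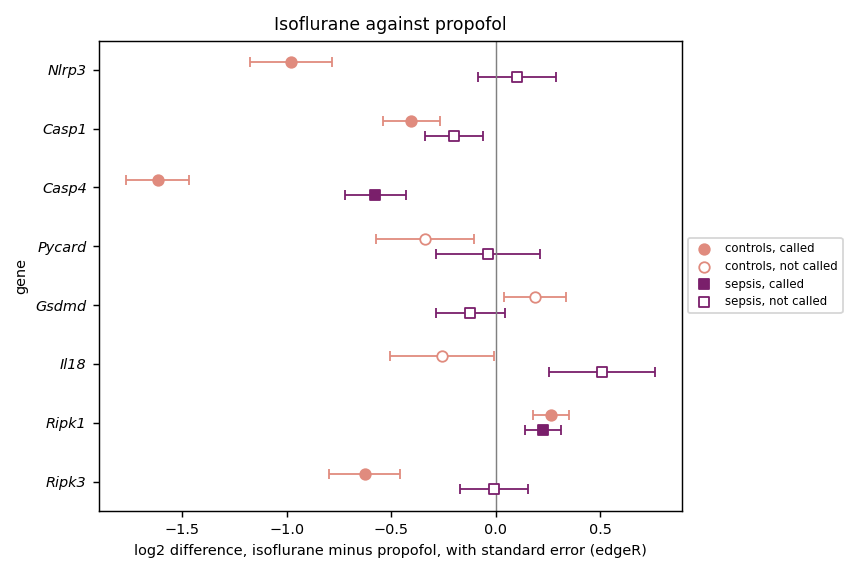
Log2 difference, isoflurane minus propofol, of the 8 tested genes in control livers (circles) and septic livers (squares), with standard errors and filled symbols for an adjusted p below 0.05. In the controls Casp4 (-1.62), Nlrp3 (-0.98), Ripk3 (-0.63) and Casp1 (-0.40) were lower under isoflurane, and in sepsis Casp4 alone was lower (-0.58).

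The genes around these in the pathway were taken from 5 lists that hold 78 measured genes other than the 9 above, 68 of which were tested. Under isoflurane 28 rose and 14 fell, with a median log2 fold change of 0.25. Under propofol 20 rose and 17 fell, with a median of 0.039, and 15 rose and 21 fell when libraries were scaled by totals alone. Without library 10, 36 pathway genes were called under propofol. With all libraries the share called was 42 of 68 and 37 of 68, and is to be read against the 50.0% and 42.1% of all genes. The counts of each list below are to be read against the same shares.

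In the list of inflammasome cytokines and their receptors, which is wider than the interleukin-1 family, 7 of 10 tested genes rose and 2 fell under isoflurane. Under propofol 6 rose and 2 fell. Il1b, the cytokine that Casp1 matures alongside Il18, went from 3.52 ± 0.541 to 45.3 ± 20.6 CPM (SD, n = 4) under isoflurane and from 6.04 ± 1.73 to 31.0 ± 3.19 CPM under propofol. These were log2 fold changes of 3.70 (SE 0.311, adjusted p = 7.28e-05) and 2.36 (SE 0.172, adjusted p = 2.52e-05). Natural brakes of interleukin-1 and interleukin-18 rose as well. Il1rn, the receptor antagonist, changed by 1.81 under isoflurane and 2.47 under propofol, and reached 674 ± 22.1 and 463 ± 41.4 CPM in sepsis. The decoy receptor Il1r2 rose by 1.79 and 1.88, and Il18bp, which captures interleukin-18, by 1.37 and 1.56. Il1rl1, the receptor of interleukin-33, rose by 2.49 and 2.36, while Il33 itself fell by 1.23 and 0.65 on the log2 scale. Il1rl1 had 5 to 21 reads per Isoflurane-Control library and 28 to 52 per Isoflurane-Sepsis library. It thus entered the isoflurane test through the septic pools, and its change there rests on few reads. Il18 was called in neither anesthetic.

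Among the sensors and the factors that license them, 4 of 13 rose and 4 fell under isoflurane, and 3 rose and 4 fell under propofol. Nek7, the kinase that Nlrp3 needs for assembly, rose by 1.02 (adjusted p = 0.0033) under isoflurane and 1.31 (adjusted p = 0.000294) under propofol, so it was called in propofol where Nlrp3 was not. Mefv, which encodes the sensor pyrin, rose by 1.64 (adjusted p = 0.00234) and 1.28 (SE 0.430, adjusted p = 0.0362). It had 5 to 14 reads per Propofol-Control library and 16 to 37 per Propofol-Sepsis library, so its change under propofol rests on few reads. The guanylate-binding protein genes Gbp2 and Gbp5, whose products help to expose bacterial lipopolysaccharide to Casp4, rose by 1.54 and 1.09 under isoflurane, and under propofol Gbp2 rose by 0.62 while Gbp5 had 0.52 (adjusted p = 0.285). Nlrp12 and Nlrx1, relatives of Nlrp3 best known as dampers of inflammatory signaling, fell by 1.57 and 1.10 under isoflurane and by 1.32 and 0.78 under propofol.

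Of the 6 other caspases and membrane rupture genes tested, 2 rose and 2 fell under isoflurane, and 1 rose and 2 fell under propofol. Casp8, which cuts Ripk1 and Ripk3 and so holds necroptosis in check, fell by 0.70 (adjusted p = 0.00625) and 0.68 (adjusted p = 0.0155). Casp8 lies outside the rule for named genes and was chosen after its values were seen.

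Among regulators of death receptors and of the necrosome, the complex of Ripk1 and Ripk3, 9 of 27 rose and 3 fell under isoflurane, and 9 rose and 4 fell under propofol. These counts are near the 50.0% and 42.1% of all genes that were called. Birc3, a ubiquitin ligase that modifies Ripk1, rose by 1.51 and 1.23. Mapkapk2, a kinase that phosphorylates Ripk1 and restrains it, rose by 1.53 and 1.42. Cflar, the inhibitor of Casp8 at death receptors, rose by 0.84 and 1.50. Tlr3, a receptor for double-stranded RNA that can engage Ripk3 through its adaptor, fell by 1.98 and 1.69. Tnf, the ligand that starts the Ripk1 pathway, rose by 4.04 (adjusted p = 9.35e-05) and 1.90 (adjusted p = 0.000961). Its levels were 0.0801 ± 0.0440 CPM in Isoflurane-Control and 0.656 ± 0.172 CPM in Propofol-Control. In sepsis they were 1.42 ± 0.332 CPM under isoflurane and 2.50 ± 0.807 CPM under propofol. Tnf had 1 to 4 reads per Isoflurane-Control library and 19 to 31 per Isoflurane-Sepsis library. It thus entered the isoflurane test through the septic pools, and its change there rests on few reads.

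**Figure D5:**
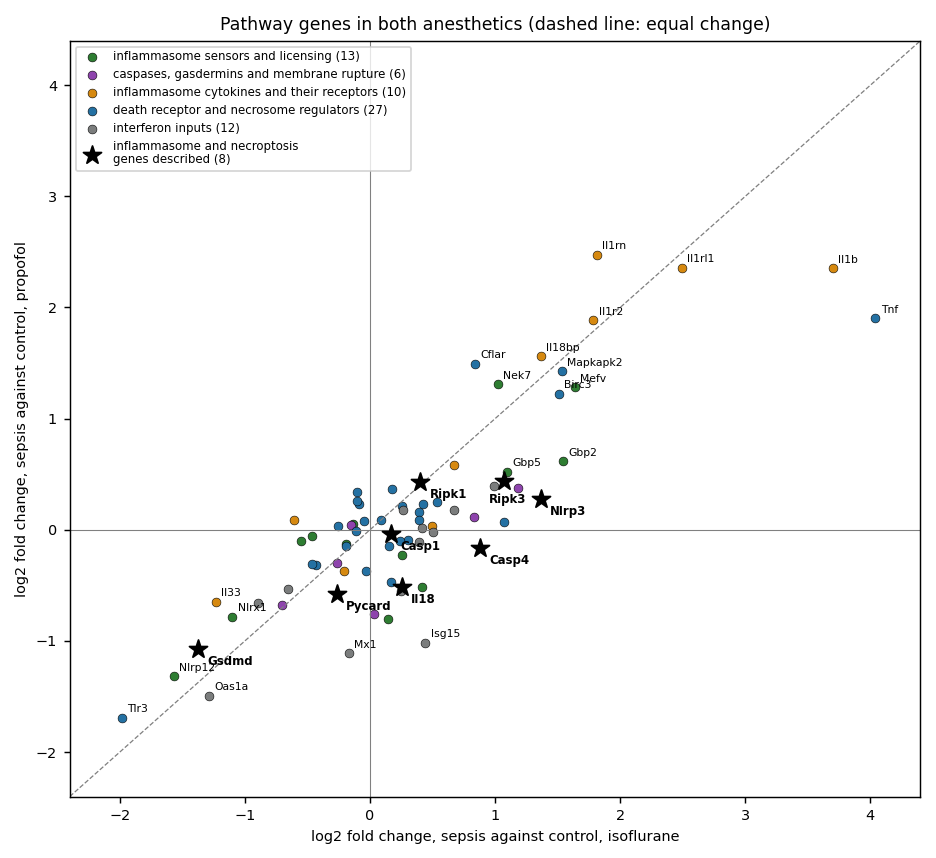
Log2 fold change in sepsis under propofol against that under isoflurane for the 68 tested pathway genes, coloured by list, and for the 8 inflammasome and necroptosis genes (stars), with a dashed line where both are equal. Il1b, Il1rn, Il1rl1 and Tnf lie far up on both axes, Tlr3 and Nlrp12 far down on both, and Casp4, Nlrp3 and Ripk3 lie below the dashed line.

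Interferon inputs gave 6 of 12 genes up and 3 down under isoflurane, and 1 up and 5 down under propofol. Oas1a, an interferon-induced enzyme that senses double-stranded RNA, fell by 1.28 and 1.49. Isg15 and Mx1, both classical interferon-induced genes, fell by 1.02 and 1.11 under propofol, and had 0.44 (adjusted p = 0.114) and -0.17 (adjusted p = 0.755) under isoflurane. Of the 68 pathway genes, 9 were called in the interaction (without library 10, 7 more positive and 4 more negative), where 2.72% of all genes were, and 8 of them are named after their values were seen. Among these 8 the response was more positive under isoflurane for Tnf (2.12), Isg15 (1.45), Irgm (0.93), Panx1 (0.92) and Casp12 (0.78), and more negative for Il1r1 (-0.70), Il1rn (-0.67) and Cflar (-0.67). Between the controls, Tnf (-2.95), Isg15 (-1.01), Panx1 (-0.78) and Casp12 (-0.69) were lower under isoflurane. Both values of Tnf rest on the 1 to 4 reads per Isoflurane-Control library, so their size is uncertain. Il1rn (1.21) and Cflar (0.88) were higher there, and Irgm and Il1r1 were not called. Between the septic livers, Tnf (-0.83) and Il1r1 (-0.38) were lower under isoflurane, and Irgm (0.56) and Il1rn (0.54) were higher. Isg15, Panx1, Casp12 and Cflar were not called between the septic livers. In the controls, 7 of 68 were higher and 16 lower under isoflurane, where 26.3% of all genes were called in either direction, or 5 and 28 with library totals alone.

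Over the 16 libraries, the genes whose log2 CPM followed each of the 8 most closely are given as a description, since the libraries share their groups and depths. For Nlrp3 they were Nup62 (Pearson r = 0.967), Lsp1 (0.954) and Rac2 (0.946), and for Ripk3 they were Lcn2 (0.948), Il13ra1 (0.946) and Spi1 (0.937). For Gsdmd they were Abcc6 (0.985), Cdk18 (0.981) and Mylk (0.979). Casp4 was followed by Pes1 (0.951), Ncl (0.935) and Dnajc2 (0.928), and Ripk1 by Hn1l (0.956), Pnn (0.955) and Ctdnep1 (0.955). The 3 genes nearest to Casp1 (Limd1, Dis3 and Ercc6), Pycard (Nfic, Apitd1 and Tbx20) and Il18 (Vegfc, Cd7 and Cd4) reached 0.802 to 0.850. Among the 8 genes themselves, Nlrp3 and Ripk3 were the most alike (0.881), and after the group means were removed their correlation was 0.338.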

How the data were processed

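Polyadenylated liver RNA was sequenced from 16 libraries with a strand-specific kit, each library a pool of 3 rats. The authors deposited raw counts, whole numbers of reads per gene symbol, without normalization. Per the submitters' processing notes reads were aligned with STAR to the rat build rn5. The counting program, its annotation and its use of strand were not given in the sources used here. Entries for reads outside genes (21.6% to 25.4% of a library) and for ambiguous reads (1.07% to 1.35%) were left out. Of the 17055 symbols, 14175 were found in the GRCr8 RefSeq annotation, which was used for names, neighbours and promoter windows only.

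Septic and control libraries of the same anesthetic were compared with edgeR 4.0.16 (R 4.3.3) and its quasi-likelihood test, in fits of 4 libraries against 4, with TMM scaling and filterByExpr (minimum count 10, minimum total count 15). The interaction and the comparisons between anesthetics came from a fit of all 16 libraries with a mean for each group. P-values were corrected across every gene in the test (Benjamini-Hochberg), and genes were called at an adjusted p under 0.05. CPM were computed after TMM scaling, and log2 CPM used a prior count of 2. The code was tested on simulated data. Alternatives were RLE size factors, library totals alone, DESeq2 1.42.0, limma-voom (limma 3.58.1), a mean CPM of at least 1, no limit on low counts, a threshold of 0.01, thinned counts, 1 fit of all 16 libraries for the sepsis comparisons, and the removal of single libraries.

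All listed genes are named. Of the pathway lists, genes called in sepsis in either anesthetic with a log2 fold change of at least 1 in size and a mean log2 CPM of at least 0 are named (20 of 21 genes, since 1 is not reported here), and the 3 genes nearest to each gene by Pearson r. The genes, lists and markers were chosen with earlier results of these data known, so counts over them are descriptions. CPM were compared only within a gene, as no transcript lengths were used here.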

Additional observations from a re-analysis of the deposited data

Results flagged for a closer look

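In 36 groups of 4 libraries (9 genes in 4 groups), 3 had a library set apart from the other 3 by a gap that was large for the range of its group. Chance gives about 1 such group in 20. The gap was 0.85 to 0.88 of the range, which can be a small difference where the other 3 lie close together. Pycard in Propofol-Sepsis had 0.535 CPM in library 11, the lowest of its group, while the others had 1.09 to 1.19 CPM. Ripk3 in Isoflurane-Control had 2.30 CPM in library 5, the highest of its group, against 2.06 to 2.09 CPM in the others. This small gap rests on 49 reads in library 5, against 42, 45 and 99, and was not tested against counting error. Ripk3 in Propofol-Control had 4.12 CPM in library 13, the highest of its group, against 2.97 to 3.14 CPM. The response to sepsis differed between the anesthetics for Nlrp3, by 1.08 on the log2 scale, and for Casp4, by 1.04, in the tested interaction. Of 23 alternatives, 16 lost the call of Nlrp3 and 3 that of Casp4.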

How the results depend on the processing

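The calls within each anesthetic changed little, with 5 to 6 of the genes called under isoflurane and 2 to 3 under propofol over 17 alternatives each. Over 680 alternative values of single genes and comparisons, 606 kept direction and side of the threshold, 46 lost the call, 5 gained it and 23 reversed. In the interaction, 2 genes were called, but 0 at an adjusted p below 0.01, 1 with limma-voom, 1 with no limit on low counts, 1 with thinned counts, and 0 to 2 with single libraries left out. Between controls, 5 were called, 2 at an adjusted p below 0.01 and 3 to 5 with single libraries left out (3 without 5, 6, 8, 14 or 15). In sepsis, 2 were called, and 1 at an adjusted p below 0.01, with library totals alone, with limma-voom, with no limit on low counts, and 1 to 2 with single libraries left out (1 without 1, 2, 9, 10, 11 or 12). At an adjusted p below 0.01, 23 pathway genes were called under propofol. Il18 under propofol was called by limma-voom (adjusted p = 0.0479). The cause of these shifts was not tested.

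Reversed log2 values all belonged to results that were not called. For Casp1 with thinned counts they were -0.042 (isoflurane), 0.025 (propofol) and -0.071 (interaction). Between anesthetics in sepsis, Nlrp3 had -0.048 with library totals, Pycard 0.026 with thinned counts, and Ripk3 0.0029 with RLE size factors, 0.0066 with DESeq2 and 0.0082 with limma-voom. With single libraries left out, Il18 under isoflurane ranged from -0.025 (without 4) to 0.42, Casp1 under propofol from -0.086 to 0.028 (without 12; also above 0 without 14) and Ripk1 in the interaction from -0.13 to 0.026 (without 3; also above 0 without 4). In sepsis, isoflurane minus propofol ranged from -0.096 (without 4) to 0.19 for Nlrp3, from -0.23 to 0.051 for Pycard (above 0 without 1, 4, 9, 10 or 12) and from -0.11 to 0.10 for Ripk3 (above 0 without 1, 2, 9 or 11).

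The share of genes called under propofol that were higher in sepsis was 48.4%, and 38.3% with library totals alone. No paired analysis was possible because no replicate number is shared between groups. Pycard and Zbp1 are limited by depth, with 10 to 53 and 1 to 10 reads per library.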
